A study of Mus musculus with 8 samples.

Results

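The mitochondrial ribosomal protein genes are the nuclear genes that encode the protein parts of the ribosome inside mitochondria. They were taken as every row of the deposited gene counts whose symbol is Mrpl or Mrps followed by a number and at most 1 letter. The rule found 76 genes among 39017, of which 47 have large subunit symbols and 29 small subunit symbols. All 76 were expressed highly enough to be tested, as were 15816 genes in all. Another 4 symbols with the same start, Mrpl23-ps1, Mrpl48-ps, Mrps36-ps1 and Mrps36-ps2, are pseudogenes and fell outside the rule.

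The samples were cultured satellite cells, which are muscle stem cells, from diaphragm and abdominal muscle of adult Pax3GFP/+ mice. In these mice 1 Pax3 allele carries a green fluorescent protein reporter, and both conditions share it. The tested cells were given 10 µM sal003, a compound that blocks removal of the phosphate from translation initiation factor eIF2α, and the others were given its solvent, DMSO. Both were cultured for 4 days, with 4 libraries per condition. The labels do not say whether the libraries of a condition came from separate animals or cultures, so p-values measure the spread between these libraries, which may be technical.

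The mitochondrial ribosome makes the few proteins that the mitochondrial genome encodes, all of them parts of the respiratory chain and ATP synthase. Its ribosomal RNAs come from that genome, while its proteins are made in the cytosol and imported. The large subunit joins amino acids and releases the new chain through an exit tunnel at the inner membrane, and the small subunit reads the messenger RNA.

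Each library held 32753929 to 40234107 counts. The satellite cell and myoblast markers Pax7, Myf5 and Myod1 were above 0 in all 8 libraries. Of 12 such markers, 1 rose and 6 fell in sal003. In CPM (counts scaled to a fixed library total), Myog had 788 to 926 in sal003 and 2363 to 2873 in DMSO. Des had 1116 to 1209 CPM in sal003 and 2660 to 3181 CPM in DMSO. Of 32 markers of other cell types, 11 were at 0 in all 8 libraries and 13 were expressed highly enough to be tested. Among these, Cspg4 was the highest, with 137 to 168 CPM in sal003 and 171 to 244 CPM in DMSO. Notch3 came next, with 39.7 to 51.8 CPM in sal003 and 70.8 to 96.4 CPM in DMSO. No other tested marker of these cell types was above 10.9 CPM in any library. DMSO replicate 2 stood apart from the other libraries. A count was found for 14437 genes in it, against 16561 to 18076 in the other 7, and its log2 deviations from the mean of the other DMSO libraries had an SD of 0.601 over the 76 genes, against 0.29 to 0.39 in the other DMSO libraries. Leaving it out turned the sign of the estimate of 12 of the 76 genes, none of which passed the test with or without it.

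Of the 76 genes, 3 rose in sal003-treated cells and 0 fell (edgeR's quasi-likelihood test, Benjamini-Hochberg adjusted p below 0.05 over all 15816 genes). These were Mrpl12, Mrpl18 and Mrpl45, all of the large subunit, and the other 73 did not pass the test. In the same test 10.6% of all genes rose and 12.2% fell, 22.7% in either direction, against 3.95% and 0% of the mitochondrial ribosomal protein genes. At an unadjusted p below 0.05, 13 of the 76 (17.1%) were higher and 1 (1.32%) was lower, against 15.5% and 16.4% of all tested genes. In bulk samples, a change in the share of cells that express a gene and a change in RNA per cell cannot be told apart.

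The upstream sequences of Mrpl12 and Mrpl45 and a site of Mrpl18 are shown because these are the genes that rose. They are RefSeq promoter sequences of the GRCm38.p6 build, each 5′ to 3′ on the strand of its gene. Mrpl12 is shown at chr11:120484387-120484612 on the plus strand, Mrpl45 at chr11:97315466-97315715 on the plus strand, and Mrpl18 at chr17:12916313-12916341 on the minus strand. The first pair end just before the annotated first exon, and the Mrpl18 site lies in annotated exons of Mrpl18 and of Tcp1 on the other strand. Capitals mark matches, on either strand, to GCGCA, any base and then GCGC, a form of the NRF1 motif, or to CCGGAAG, a form of the ETS motif.
Mrpl12: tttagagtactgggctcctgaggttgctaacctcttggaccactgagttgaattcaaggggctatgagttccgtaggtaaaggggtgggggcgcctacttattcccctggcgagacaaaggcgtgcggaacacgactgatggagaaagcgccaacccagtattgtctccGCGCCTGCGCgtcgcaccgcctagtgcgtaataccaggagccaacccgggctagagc
Mrpl45: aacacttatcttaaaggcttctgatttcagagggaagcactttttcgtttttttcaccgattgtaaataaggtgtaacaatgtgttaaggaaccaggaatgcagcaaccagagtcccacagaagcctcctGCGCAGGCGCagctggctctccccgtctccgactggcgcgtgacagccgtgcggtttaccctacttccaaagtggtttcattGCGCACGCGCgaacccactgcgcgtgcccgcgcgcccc
Mrpl18: actgaaaacgCCGGAAGtagggggctgcg

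The Mrpl12 stretch holds 1 NRF1 match and the Mrpl45 stretch holds 2. The Mrpl18 site was cut around its 1 ETS match, so that match was fixed by the choice of window. NRF1 matches also lay in promoters of genes that did not pass the test, such as Mrpl9 and Mrpl14. NRF1 and the ETS factor GABP are known activators of nuclear genes for mitochondrial proteins. Promoters from 250 bases before to 50 bases after a start were found for 67 of the 76 genes, with 73 starts in all. The NRF1 letters were in 16.4% of these promoters, against 9.68% of those of tested genes and 4.6% of all promoters. The ETS letters were in 32.9%, against 16.8% and 8.86%. The YY1 letters AAGATG followed by GCGGC were in 6.85%, against 1.42% and 0.633%. The E-box letters CACGTG, which MYC and related factors bind, were in 9.59%, close to the 10.0% of tested genes and above the 7.15% of all promoters. Both strands were searched, and none of these motifs contains another. A match describes letters and not a bound site.

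Mrpl12 encodes the protein of the flexible stalk that recruits translation factors to the ribosome, and the human protein also binds the mitochondrial RNA polymerase. The gene (ENSMUSG00000039640) lies at chr11:120484613-120489065 on the plus strand of mm10. Its level was 84.4, 83.5, 72.0 and 81.8 CPM (each count scaled to a fixed library total, with TMM factors) in sal003 libraries, against 48.0, 40.0, 47.8 and 52.5 CPM in DMSO libraries. Every sal003 library was above every DMSO library, with a wide gap between the conditions. The means were 80.4 ± 5.75 CPM in sal003 and 47.1 ± 5.21 CPM in DMSO (SD, n = 4 each). The log2 fold change was 0.77 ± 0.12 (SE), which is 1.71-fold, with an adjusted p of 0.000149 in edgeR's quasi-likelihood test. Its exons share 200 bases with Gm16755 on the opposite strand, which averaged 0.944 CPM in sal003 and 0.413 CPM in DMSO.

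Mrpl18 encodes a protein of the central protuberance, and the human protein is known to help carry 5S ribosomal RNA into mitochondria. The gene (ENSMUSG00000057388) lies at chr17:12911349-12916345 on the minus strand. Its level was 86.1, 97.3, 101.4 and 93.8 CPM in sal003 libraries, against 56.7, 71.2, 59.0 and 59.4 CPM in DMSO libraries. The conditions did not overlap. The log2 fold change was 0.62 ± 0.11 (SE), or 1.54-fold, with an adjusted p of 0.000559 in edgeR's quasi-likelihood test. Its exons share 141 bases with Tcp1, a chaperonin subunit gene on the opposite strand. Tcp1 was itself higher, at 777 ± 17.4 CPM in sal003 and 557 ± 46.0 CPM in DMSO (SD, n = 4 each), with a log2 fold change of 0.48 ± 0.08. The strand setting of the counting is not given in the sources used here, and the part of Tcp1 reads in the Mrpl18 value was not tested.

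Mrpl45 encodes a protein beside the exit tunnel that in mammals holds the ribosome to the inner membrane. The gene (ENSMUSG00000018882) lies at chr11:97315716-97329920 on the plus strand. Its level was 33.6, 38.1, 45.8 and 41.6 CPM in sal003 libraries, against 33.2, 29.98, 27.3 and 27.7 CPM in DMSO libraries. The lowest sal003 library, replicate 1, was barely above the highest DMSO library, also replicate 1. The log2 fold change was 0.43 ± 0.15 (SE), or 1.35-fold, with an adjusted p of 0.0448 in edgeR's quasi-likelihood test. This call was lost when any of 5 libraries was left out: adjusted p in edgeR was 0.102 without DMSO replicate 3, 0.0876 without DMSO replicate 4, and 0.0806, 0.158 and 0.106 without sal003 replicates 2, 3 and 4. Mrpl12 and Mrpl18 passed whichever of the 8 libraries was left out, with log2 fold changes of 0.71 to 0.85 and 0.59 to 0.71.

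**Figure D1:**
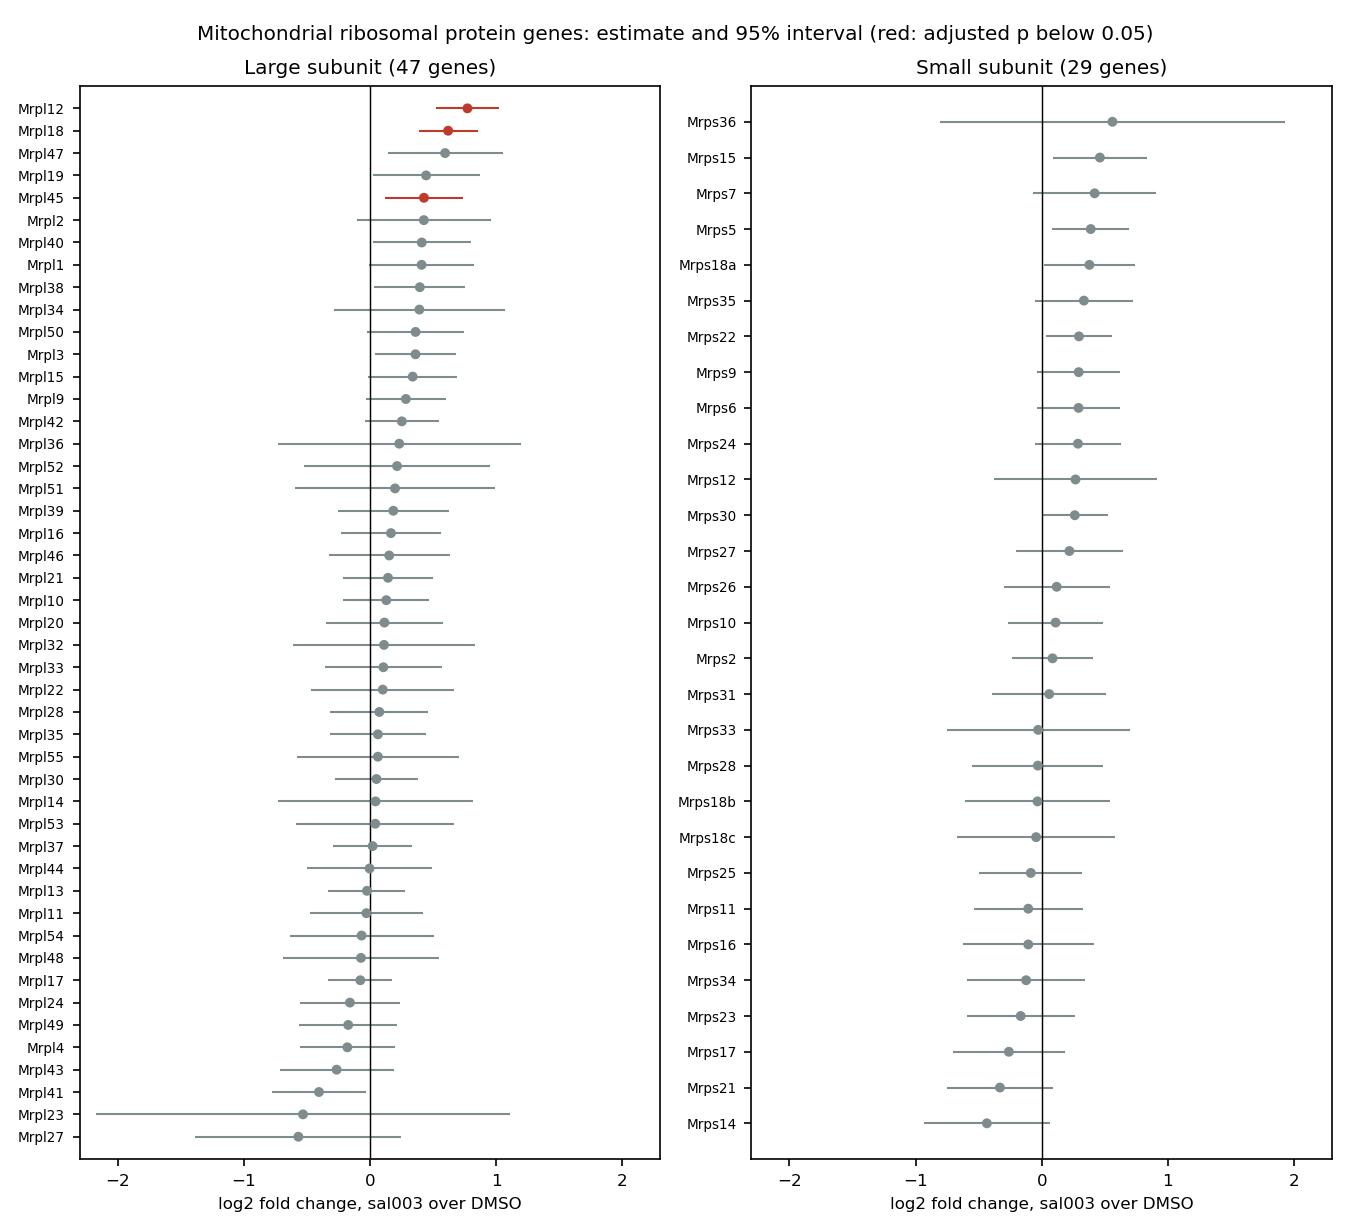
Each point is the log2 fold change of 1 gene, sal003 over DMSO, with its 95% interval, for 47 large subunit genes on the left and 29 small subunit genes on the right. The red points, which passed the adjusted threshold, are Mrpl12, Mrpl18 and Mrpl45, and the estimates run from -0.57 for Mrpl27 to 0.77 for Mrpl12.

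Over the 76 genes the median of the log2 fold changes was 0.11 (interquartile range -0.04 to 0.30), against -0.003 over all tested genes (interquartile range -0.45 to 0.38). The estimate was positive for 51 of the 76, or 67.1%, against 49.8% of all tested genes. The conditions did not overlap for 13 genes, all higher in sal003, and no gene had all sal003 libraries below all DMSO libraries. Over all tested genes, 13.1% had 4 sal003 libraries above 4 DMSO libraries and 13.7% had them below. For 69 of the 76 genes the 95% interval lay within a 2-fold change in either direction, and for 26 it lay within a 1.5-fold change. The estimate itself was past 1.5-fold for 3 genes, Mrpl12, Mrpl18 and Mrpl47.

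By subunit, 3 of 47 large subunit genes (6.38%) and 0 of 29 small subunit genes rose, both below the 10.6% of all tested genes. In the small subunit, 5 of 29 genes were higher at an unadjusted p below 0.05, as were 15.5% of all tested genes. DESeq2 also called 0 small subunit genes. Some alternatives did call small subunit genes as higher: 2 without DMSO replicate 2 or replicate 4, 1 without DMSO replicate 3, 1 each with voom, with no filter and with a replicate block, and 2 among protein-coding genes alone. The medians were 0.11 in both subunits. Estimates were positive for 34 of 47 large subunit genes (72.3%) and 17 of 29 small subunit genes (58.6%). Symbols do not fully follow structure: Mrps30 and Mrps18a proteins sit in the large subunit, and the Mrps36 protein belongs to the α-ketoglutarate dehydrogenase complex. Grouped by structure, 49 large subunit genes had a median of 0.13 and 26 small subunit genes a median of 0.07.

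Among the 5 genes of the L7/L12 stalk and its base the median was 0.04, and Mrpl12 was the one that rose. Mrpl10, which anchors the Mrpl12 copies, had 29.4, 31.5, 29.4 and 26.0 CPM in sal003 libraries, against 21.8, 26.5, 25.6 and 32.4 CPM in DMSO libraries. These overlapped, and the log2 fold change was 0.13 ± 0.16 (SE). Mrpl11, at the base of the stalk, had an estimate of -0.03 ± 0.21 (SE).

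The 5 exit tunnel genes had a median of 0.10. Beside Mrpl45, Mrpl47 had 20.4, 16.1, 17.3 and 14.1 CPM in sal003 libraries, against 9.33, 10.8, 13.6 and 11.2 CPM in DMSO libraries. All sal003 libraries were above all DMSO libraries. Its log2 fold change of 0.60 ± 0.21 (SE) had an adjusted p of 0.0589 in edgeR's quasi-likelihood test. The exons of Mrpl47 share 616 bases with Ndufb5 on the opposite strand, and the part of Ndufb5 reads in its value was not tested. Without DMSO replicate 2, or without DMSO replicate 3, Mrpl47 passed the threshold.

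The 7 central protuberance genes had a median of 0.15. Beside Mrpl18, Mrpl38 had 30.2, 29.6, 32.4 and 28.9 CPM in sal003 libraries, against 17.7, 22.4, 28.8 and 23.2 CPM in DMSO libraries. The conditions just failed to overlap, and the adjusted p was 0.116 in edgeR's quasi-likelihood test. Mrpl27, of the same region, had the lowest estimate of all 76 genes, -0.57 ± 0.38 (SE), with an adjusted p of 0.358 in that test. Its DMSO values were uneven, with replicate 2 more than 2-fold above the mean of the other DMSO libraries. Without that library its estimate was -0.19, and Mrpl41 had the lowest, at -0.48.

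The next groups follow structure and not symbols, and 10.6% of all tested genes rose. The large subunit genes with a bacterial counterpart numbered 30, of which 2 rose (6.67%), with a median of 0.11. Those found only in mitochondrial ribosomes numbered 19, of which 1 rose (5.26%), with a median of 0.19. In the small subunit, 17 genes with a bacterial counterpart had a median of 0.09 and 9 mitochondrial ones a median of 0.06. Of 16 members linked to inherited human disease, 1 rose (6.25%), Mrpl12, and their median was -0.02. No difference between these groups was tested.

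Mrps18a, Mrps18b and Mrps18c encode 3 related forms of the bacterial protein S18, and none of these genes passed the test. Mrps18a had 27.6, 22.3, 29.0 and 25.5 CPM in sal003 libraries, against 20.96, 17.9, 23.4 and 18.1 CPM in DMSO libraries. Only sal003 replicate 2 and DMSO replicate 3 overlapped, and the log2 fold change was 0.38 ± 0.17 (SE), with an adjusted p of 0.135 in edgeR's quasi-likelihood test. Mrps18b had 14.9, 17.8, 13.3 and 15.7 CPM in sal003 libraries, against 10.4, 25.8, 16.0 and 11.02 CPM in DMSO libraries, where replicate 2 was the highest of all 8. Mrps18c had 5.54 to 10.1 CPM in sal003 libraries and 6.07 to 10.4 CPM in DMSO libraries, almost the same range. The estimates were -0.03 ± 0.27 for Mrps18b and -0.04 ± 0.30 for Mrps18c (SE). Without DMSO replicate 2 both turned positive, to 0.32 for Mrps18b and 0.09 for Mrps18c, and neither passed the test.

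**Figure D2:**
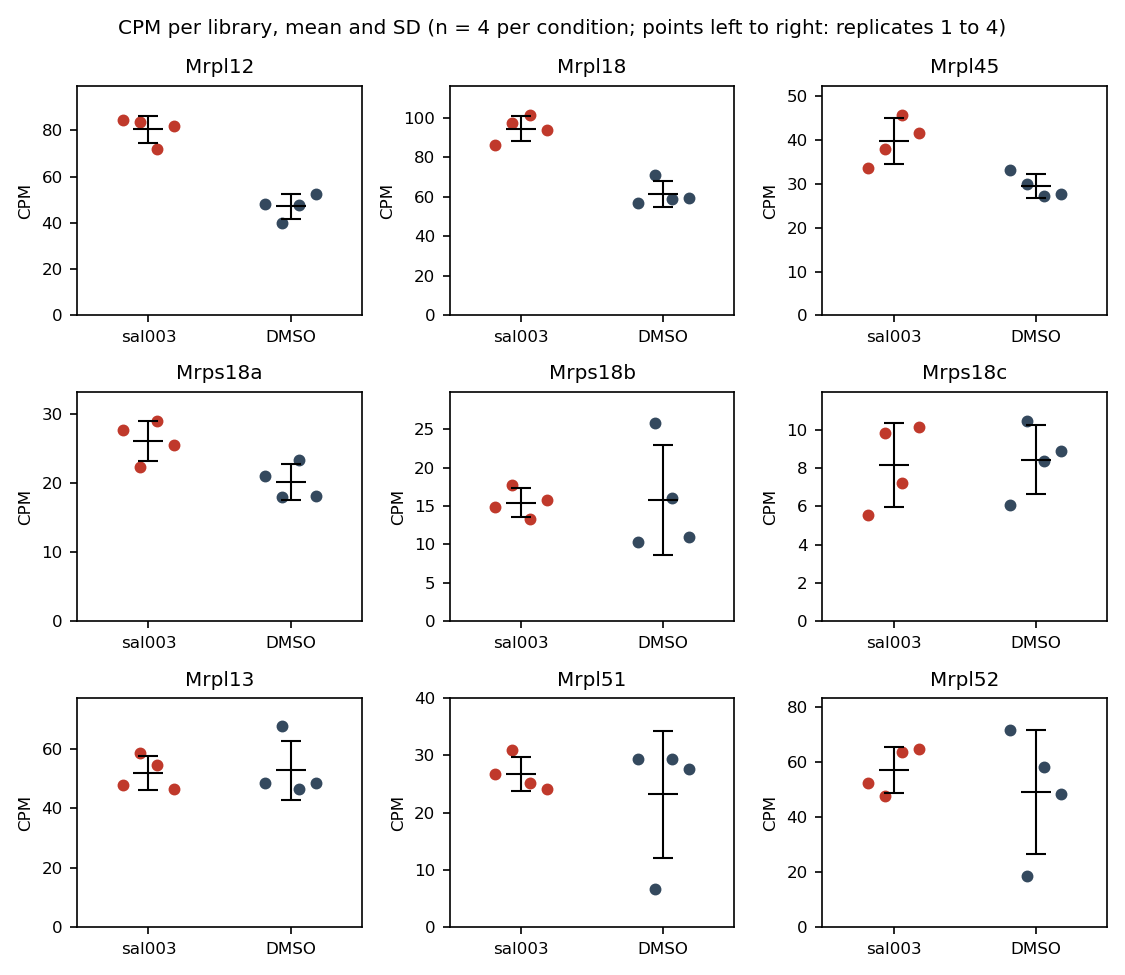
CPM in each library for 9 genes, with sal003 on the left and DMSO on the right of each panel; points are replicates 1 to 4 and bars are the mean and SD (n = 4). Mrpl12, Mrpl18 and Mrpl45 do not overlap between conditions, while DMSO replicate 2 is far from the other DMSO libraries in Mrps18b, Mrpl13, Mrpl51 and Mrpl52.

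Levels between genes were compared as CPM per kilobase (kb) of the principal transcript in the GENCODE M21 annotation, which 75 of the 76 genes had. Levels differed far more between genes than between conditions. They spanned 2.15 to 137 CPM per kb in sal003 and 2.002 to 118 CPM per kb in DMSO, with medians of 15.1 and 13.5. The highest large subunit genes were Mrpl52, Mrpl42 and Mrpl18. Mrpl52 had 137 ± 20.3 CPM per kb in sal003 and 118 ± 53.8 in DMSO, Mrpl42 had 71.7 ± 6.49 and 60.2 ± 8.27, and Mrpl18 had 77.6 ± 5.33 and 50.5 ± 5.35 (SD, n = 4 each). The log2 fold change of Mrpl52 was 0.22 with DMSO replicate 2 and -0.04 without it. In DMSO, Mrpl42 and Mrpl18 differed by little more than their SDs.

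The highest small subunit genes were Mrps22, Mrps6 and Mrps21. Mrps22 had 57.4 ± 4.01 CPM per kb in sal003 and 46.8 ± 6.85 in DMSO, Mrps6 had 50.3 ± 3.91 and 41.1 ± 8.04, and Mrps21 had 38.2 ± 7.99 and 48.1 ± 8.04 (SD, n = 4 each). In DMSO these levels lay within their SDs of each other. The lowest were Mrpl32, Mrpl23 and Mrpl11 in the large subunit and Mrps36, Mrps16 and Mrps17 in the small, each between 2.002 and 4.45 CPM per kb in both conditions. The order of levels depends on the transcript chosen: with the length of all exons, Mrpl18 came first, Mrpl52 second and Mrpl42 25th of the 75 genes.

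Pseudogenes bear on the lowest values. Mrpl23-ps1 is identical to Mrpl23 over 540 aligned bases. It took 89.8% to 94.97% of the CPM of the pair in sal003 libraries and 70.7% to 94.9% in DMSO libraries. The pair together had 16.8 ± 4.36 CPM in sal003 and 14.9 ± 3.26 CPM in DMSO (SD, n = 4 each), so the level of Mrpl23 alone is uncertain. Mrpl48-ps and Mrpl48 matched at 98.1% of bases, and Mrps36 matched its pseudogenes at 99.3% and 99.0%, so these genes are uncertain too.

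Summed over genes, large subunit CPM was 1286 ± 15.5 in sal003 and 1115 ± 46.9 in DMSO, and small subunit CPM was 769 ± 26.2 in sal003 and 695 ± 15.5 in DMSO (SD, n = 4 each). The sums were thus 1.15 and 1.11 times as high in sal003, and in both subunits every sal003 library was above every DMSO library. Without DMSO replicate 2 the DMSO sums were 1138 ± 11.3 and 699 ± 16.5 CPM (SD, n = 3), and the sal003 sums were 1.13 and 1.10 times as high. Mrpl12, Mrpl18 and Mrpl45 made up 45.0% of the large subunit difference. These 3 were picked by the test on these same libraries, so a high share follows in part from that choice. Without them the other 44 genes summed to 1071 ± 16.7 CPM in sal003 and 977 ± 49.3 CPM in DMSO. These sums did not overlap either, at 1046 to 1083 CPM in sal003 and 905 to 1017 CPM in DMSO. The 76 genes held 0.218% ± 0.00241 of all counts in sal003 and 0.170% ± 0.00491 in DMSO before scaling. The TMM factors, which correct for a few abundant genes, were 1.04 to 1.07 in sal003 and 0.905 to 0.958 in DMSO.

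Per kb, the ratio of the large to the small subunit sum was 1.88, 1.85, 1.91 and 1.80 in sal003 libraries, against 1.90, 1.61, 1.91 and 1.73 in DMSO libraries. The ranges overlapped, and DMSO replicate 2 was the lowest. Mrpl52, the highest gene per kb, had 18.7 CPM in DMSO replicate 2, against 48.5 to 71.7 CPM in the other DMSO libraries. The part of Mrpl52 in the spread of the ratio was not tested. The mean log2 ratio was 0.0585 higher in sal003, less than the SD of 0.119 between DMSO libraries. Without DMSO replicate 2 the difference was 0.0097, and with the length of all exons it was 0.112.

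**Figure D3:**
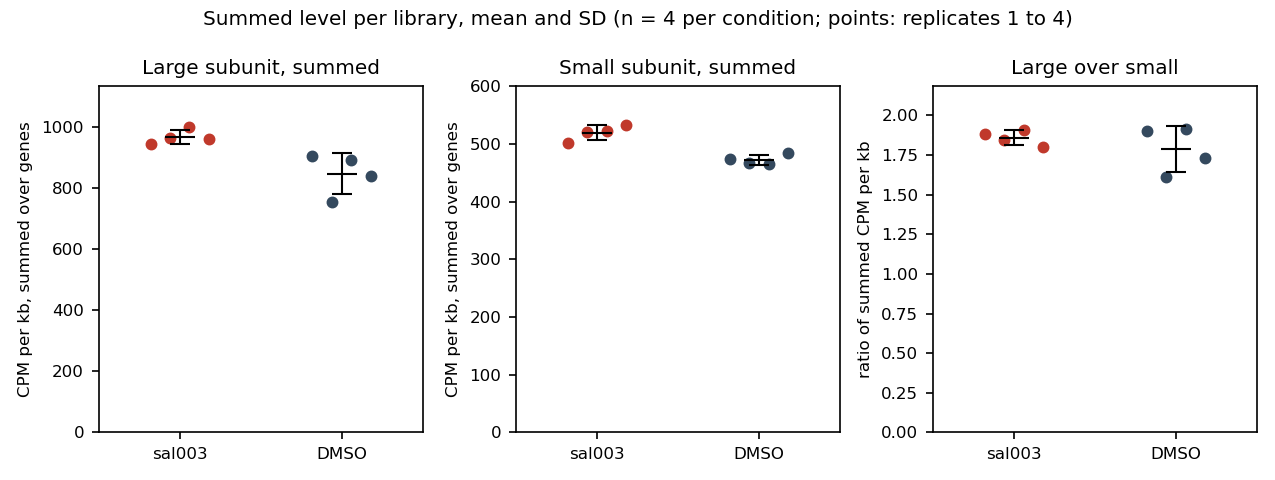
CPM per kb summed over large subunit genes, over small subunit genes, and their ratio, in each library, with mean and SD (n = 4 per condition, sal003 left, DMSO right). The sums do not overlap between conditions (943 to 999.5 against 754 to 904 for the large subunit, 502 to 533 against 465 to 485 for the small), whereas the ratios do.

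DMSO replicate 2 was the lowest of the 8 libraries for 21 genes and the highest for 14. On the log2(CPM + 0.5) scale it was more than 2-fold from the mean of the other DMSO libraries for 8 genes, below it for Mrpl51, Mrps12, Mrpl48, Mrps7, Mrpl32 and Mrpl52, and above it for Mrpl27 and Mrps18b. Without it, 7 of the 76 genes rose in edgeR's quasi-likelihood test, against a background of 13.4% of genes. These were Mrpl12, Mrpl18, Mrpl3, Mrpl45, Mrpl47, Mrps27 and Mrps9. Mrpl41, at 18.9 ± 1.91 CPM in sal003 and 24.99 ± 3.73 CPM over all 4 DMSO libraries, was then the 1 gene that fell, against a background of 13.6%. Limma-voom with sample quality weights called Mrpl12, Mrpl18, Mrpl3, Mrpl45 and Mrps27 as higher and Mrpl41 as lower, where it called 13.7% of all genes higher and 15.3% lower. DESeq2 called Mrpl12, Mrpl18, Mrpl45 and Mrpl47 as higher and 0 as lower, where 11.6% and 13.5% of all genes were called. Among protein-coding genes alone, an alternative chosen after seeing the data, 6 of the 75 tested rose, where 14.2% of genes were called higher.

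**Figure D4:**
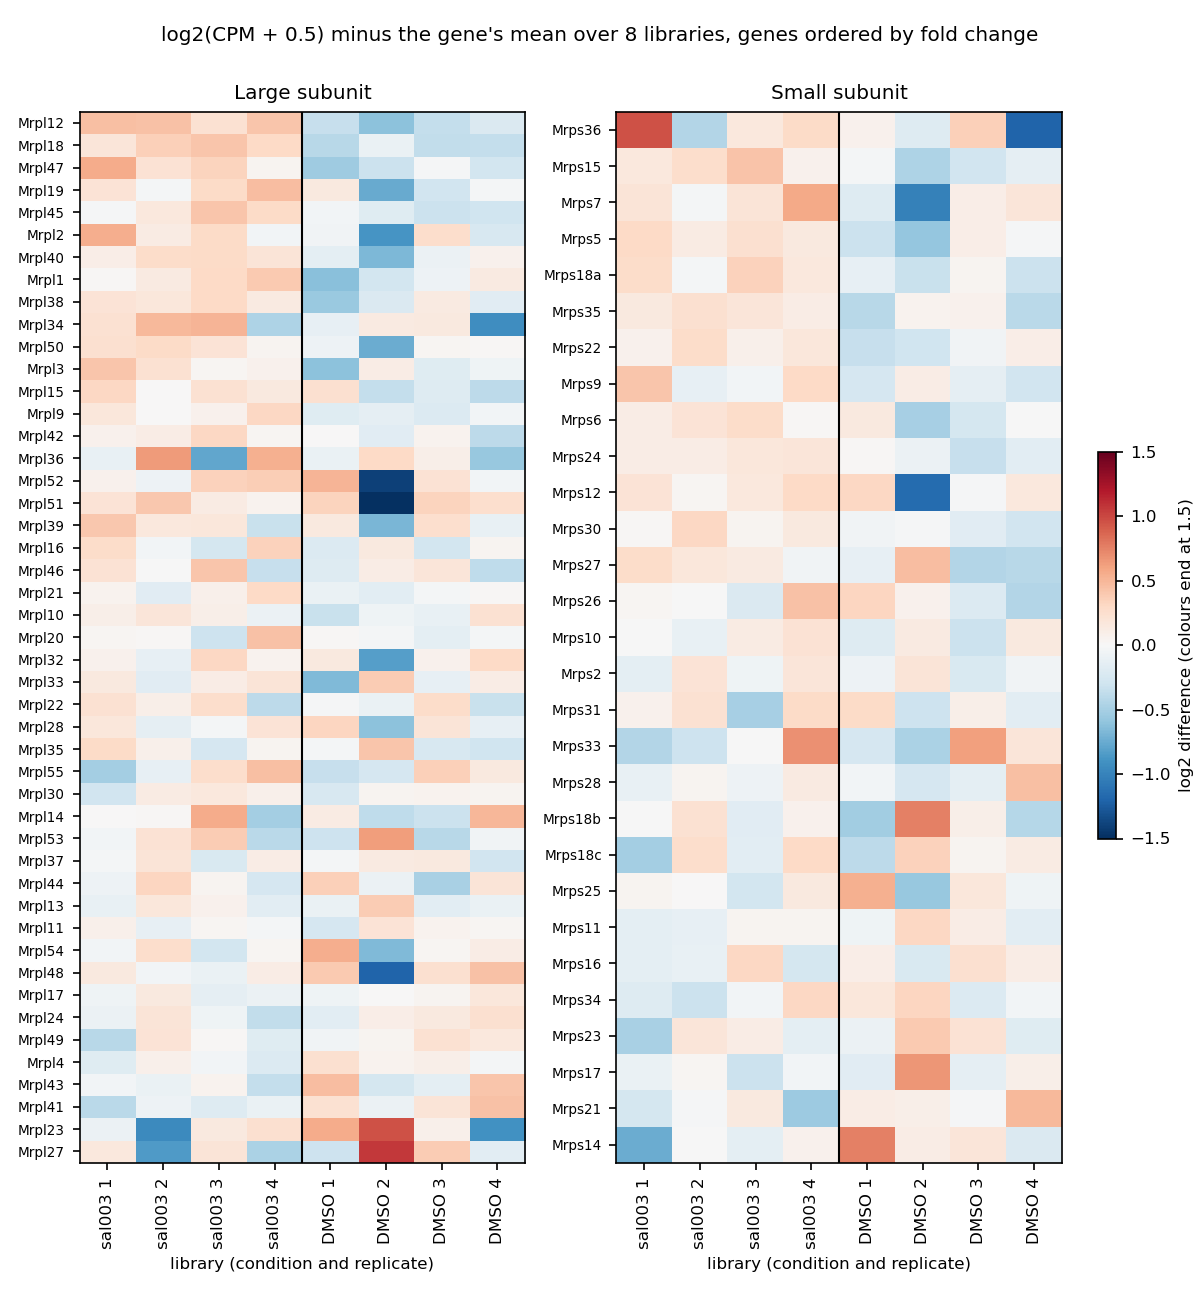
Colours give log2(CPM + 0.5) minus the mean of each gene over the 8 libraries, with sal003 libraries left of the line and DMSO libraries right of it, and genes ordered by fold change. The deep blue and deep red cells gather in the column of DMSO replicate 2, for example in Mrpl51 and Mrpl27.

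Many of these genes lie head to head with another gene. Among the 76, 25 had a protein-coding gene starting on the other strand within 1000 bases upstream or overlapping by up to 500 bases, and all 25 partners were tested. Of these partners, 6 rose in edgeR's quasi-likelihood test: Ncapd2 beside Mrpl51, Sars2 beside Mrps12, Eme1 beside Mrpl27, Ptcd2 beside Mrps27, Mtbp beside Mrpl13 and Hira beside Mrpl40. Pnpla7, beside Mrpl41, fell. Over all tested genes 10.6% rose and 12.2% fell. None of the ribosomal genes in these 7 pairs passed the test in the main analysis. Without DMSO replicate 2, and with voom, Mrps27 was called higher and Mrpl41 lower. Mrpl18 and Tcp1, which overlap on opposite strands and both rose, were not among the 25 pairs. The condensin gene Ncapd2 had 367 ± 10.1 CPM in sal003 and 233 ± 19.3 CPM in DMSO, while its neighbour Mrpl51 had an estimate of 0.20 ± 0.36 (SE). Mrpl46 and Mrps11 were each other's partner, with estimates of 0.15 ± 0.23 and -0.11 ± 0.20 (SE).

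The lists around the mitochondrial ribosome differed in how many members passed the same test. Over all tested genes it called 10.6% higher and 12.2% lower. Of 6 mitochondrial ribosomal proteins named otherwise, 1 rose, Gadd45gip1, at 45.9 ± 2.32 CPM in sal003 and 35.4 ± 3.05 CPM in DMSO. Of 19 mitochondrial translation factors 0 passed in either direction, at an unadjusted p below 0.05 3 were higher and 1 was lower (15.5% and 16.4% of all tested genes were), and their median was 0.09. Of 30 assembly factors 1 rose, Fastkd2, an RNA-binding protein needed for the large subunit, at a log2 fold change of 0.60, and their median was -0.11. Cytosolic ribosomal proteins had 12 of 86 members higher and 0 lower, with a median of 0.21.

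Of 18 mitochondrial aminoacyl-tRNA synthetases, which charge transfer RNAs, 2 rose (11.1%), Iars2 and Sars2, and 1 fell (5.56%). Of all tested genes, 10.6% rose and 12.2% fell. Nars2 fell by 1.15 on the log2 scale, to 14.3 ± 1.92 CPM in sal003, against 31.7 ± 4.02 CPM in DMSO (SD, n = 4 each). Of 20 genes for transcription and replication of mitochondrial DNA 2 rose (10.0%), near the share of all tested genes. Pnpt1, an RNA-degrading enzyme, rose by 0.86 and Mtpap, the mitochondrial poly(A) polymerase, by 0.72 on the log2 scale. Of 27 protein import genes 10 rose (37.0%) and 1 fell, Tomm7. The channel Tomm40 had 119 ± 4.77 CPM in sal003 and 74.3 ± 6.38 CPM in DMSO, and the chaperonin partner Hspe1 had 87.5 ± 10.5 CPM in sal003 and 47.3 ± 10.1 CPM in DMSO.

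Of 13 regulators of mitochondrial biogenesis 7 rose (53.8%, against 10.6% of all tested genes) and 1 fell (7.69%, against 12.2%). Pprc1, a coactivator of NRF1, rose by 0.62, Creb1 by 0.60 and Myc by 0.90 on the log2 scale. The one that fell was the coactivator Ppargc1a, at 11.01 ± 2.32 CPM in sal003 and 21.8 ± 5.16 CPM in DMSO (SD, n = 4 each). Of 78 nuclear subunits of oxidative phosphorylation, 1 rose, Sdhd, and 9 fell (11.5%, against 12.2% of all genes), with a median of -0.14. Ndufa9 and Ndufb11, both of complex I, fell by 0.58 and 0.65 on the log2 scale. Over the 78 subunits the estimates ran from -4.70 to 0.57, and 6 were past 1.5-fold in either direction. Of 13 protein genes of the mitochondrial genome 0 rose and 2 fell, mt-Nd5 and mt-Nd4l. Library preparation removed ribosomal and mitochondrial RNA, so levels of mitochondrial transcripts here depend on how much escaped removal.

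Genes of cell state moved alongside. All 12 proliferation genes rose, with a median of 1.05 on the log2 scale, and all 12 contractile genes fell, with a median of -2.50. Of all tested genes, 10.6% rose and 12.2% fell. Both lists were chosen with earlier results of these data known, so the 2 counts describe the cells and test nothing. Markers of smooth muscle and pericytes, of which 4 of 6 were tested, summed to 184 to 211 CPM in sal003 libraries and 259 to 344 CPM in DMSO libraries. Cspg4 and Notch3 made up most of these sums. The highest value in any library was 1.82 CPM for Rgs5, 2.25 CPM for Myh11, 0.237 CPM for Kcnj8 and 10.9 CPM for Pdgfrb. Endothelial markers, 4 of 7 tested, summed to 5.27 to 9.28 CPM in sal003 and 9.13 to 12.3 CPM in DMSO. Fibro-adipogenic markers, 2 of 8 tested, summed to 1.89 to 2.81 CPM in sal003 and 1.02 to 5.23 CPM in DMSO. Immune markers, 2 of 7 tested, summed to 2.16 to 4.56 CPM in sal003 and 2.36 to 5.82 CPM in DMSO, with Ptprc at 0 in all 8 libraries. Glial markers, 1 of 4 tested, summed to 2.21 to 4.71 CPM in sal003 and 2.20 to 3.16 CPM in DMSO. The part of these genes and cell types in the mitochondrial ribosomal values was not tested.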

How the data were processed

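RNA was measured in 8 libraries, 4 given sal003 and 4 given DMSO. The authors deposited whole-number counts per gene; the submitters' processing notes name mm10, featureCounts 1.4.4, STAR 2.3.0e and Trimmomatic 0.32. How the counting treated strand, multiply aligned reads and shared exons is a setting not given in the sources used here. Of the 75 members found in the annotation, 27 share exon bases with a gene on the opposite strand. Another gene on the same strand shares exon bases with 7 members. The part of neighbour reads in their values was not tested. Of counts from 1 to 20, 75.6% to 83.4% were even, so halved counts were one alternative. The labels give the dose as 10 µM in the attributes and design text and in millimolar units under treatment; 10 µM was taken. Replicate libraries differed beyond counting noise (chi-square at least 24.3 per degree of freedom), so none was treated as a duplicate.

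Counts were analysed in R 4.3.3 with edgeR 4.0.16: filterByExpr (minimum count 10, minimum total 15), TMM scaling, and a robust two-sided quasi-likelihood test on condition alone, with Benjamini-Hochberg adjustment over all 15816 genes and a threshold of 0.05. The SE is the log2 fold change divided by the square root of F. Alternatives used DESeq2 1.42.0 and voom in limma 3.58.1, and are listed in the closing section. Coordinates come from GENCODE M21, in which 37607 identifiers (96.4%) were found. Intervals reflect the spread between libraries, and no molecular identifiers are described.

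The genes, lists and tests were chosen with earlier results of these data known. Genes are named where they passed the threshold, are the 3 highest or lowest per kb of a subunit, are Mrps18 paralogs, are up to 2 genes each of stalk, exit tunnel and central protuberance, or up to 3 genes of another mitochondrial list in order of p. Other genes, such as Mrpl27, Mrpl41, Ppargc1a, Tomm7, Sdhd and the head-to-head partners, were named after their values were seen. A gene of the aminoacyl-tRNA synthetase list is not reported here and was left out of its counts.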

Additional observations from a re-analysis of the deposited data

Results flagged for a closer look

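Of 160 groups of 4 libraries examined over the genes and their sums, 4 held a library far from the other 3. By chance about 1 in 20 groups would, a larger share than was found. Mrpl51 had 6.70 CPM in DMSO replicate 2, against 27.6 to 29.4 CPM in the other DMSO libraries. Mrpl50 had 16.7 CPM in DMSO replicate 2, against 26.9 to 29.0 CPM in the others. Mrpl13 had 67.5 CPM in DMSO replicate 2, above the 46.4 to 48.6 CPM in the others. Mrpl30 had 25.1 CPM in DMSO replicate 1, against 30.5 to 30.9 CPM in the others. All 4 were DMSO libraries, 3 of them replicate 2, and none of these genes passed the test.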

How the results depend on the processing

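Alternatives were DESeq2's Wald test and its size factors, limma-voom, upper-quartile scaling, genes at 10 CPM or more in 4 libraries, no filter, leaving out the 20 most abundant genes, halved counts, an adjusted p of 0.01, a replicate block and leaving out each library. Protein-coding genes alone, the length of all exons and no division by length were chosen after seeing the data. Mrpl12 and Mrpl18 rose in every one of these fits. The number of genes that rose was 3 in the main analysis, 5 with voom, 6 among protein-coding genes (adding Mrpl47, Mrps15 and Mrps5) and 2 to 7 with 1 library left out. The number that fell was 0, but 1 with voom and 0 to 1 with 1 library left out. In the small subunit 0 to 2 genes rose over the alternatives. The small subunit median was 0.16 with voom and 0.045 to 0.21 with 1 library left out, and the large subunit median 0.12 to 0.17. At an adjusted p of 0.01, 2308 genes changed in place of 3594, and with 1 library left out 2883 to 4471. The log2 large to small ratio difference was 0.0097 to 0.092 with 1 library left out, 0.086 by structure and 0.112 with the length of all exons; it does not use the test, so it has no value by tool or threshold. Mrpl45 was lost without a filter (adjusted p 0.0538 in edgeR) and with upper-quartile scaling (0.0522). With replicate number as a block, 3430 genes were called, of which 3 were higher and 0 lower among the 76, with Mrps5 in place of Mrpl45 (adjusted p 0.0879 for Mrpl45 in edgeR). Replicate numbers showed no strong effect shared between conditions: none of 16 correlations of deviations between conditions was over 0.1. Such correlations cannot show whether libraries shared an animal or culture. The causes of these shifts were not tested.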
